A study of Homo sapiens with 6 samples.

Results

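Heat shock proteins and their DNAJ partners were followed in THP-1 macrophages in which a circular RNA had been targeted with an siRNA. The members were the rows of the deposited gene table whose symbol begins with HSP90, with HSPA, HSPB, HSPD, HSPE or HSPH and a digit, or with DNAJA, DNAJB or DNAJC and a digit, leaving out the endoplasmic reticulum (ER) chaperones DNAJB9, HSPA5 and HSP90B1. This gave 73 of 19976 rows and 72 symbols, because HSPA14 is listed under 2 Ensembl identifiers. THP-1 is a cell line from a human acute monocytic leukaemia, and PMA is a phorbol ester that makes it adherent and macrophage-like. All 6 libraries came from cells given 50 ng/ml PMA for 48 h, then 200 nM siRNA with Lipofectamine RNAiMAX for 48 h, then 200 ng/ml LPS, a bacterial TLR4 ligand, for 3 h. The siRNA was a negative control (NC) in 3 libraries, called control 1 to 3, and was directed against hsa_circ_0004287 in the other 3, called circ 1 to 3. No unstimulated or untransfected cells were among the samples, so every level described here is a level after PMA, transfection and LPS. The circular RNA itself was not analysed here.

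Molecular chaperones help proteins fold and keep unfolded chains from clumping. HSP70 proteins bind short stretches of unfolded protein in a cycle driven by ATP. J-domain proteins (DNAJA, DNAJB and DNAJC, also called HSP40) bring clients to HSP70 and make it hydrolyse ATP, and the HSP110 proteins and BAG proteins release the nucleotide again. HSP90 takes over partly folded kinases and receptors, the mitochondrial chaperonin HSPD1 with its lid HSPE1 encloses clients in a chamber, and small heat shock proteins hold unfolded chains without ATP. Heat shock factors, above all HSF1, switch on the inducible members during protein stress by binding repeats of the letters NGAAN. In macrophages, chaperones of these families are abundant under resting conditions and take part in the signalling and secretion that follow TLR4 activation.

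Library totals ran from 14793902 to 16736972 counts, so 3 counts correspond to 0.179 to 0.203 CPM (counts scaled to library size), and the 6 libraries were not alike. Control 1 and circ 3 stood apart on the first principal component of log2 CPM over all tested genes, which carried 53.4% of the variance, with scores of -23.2 and -38.4 against -1.51 to 30.4 in the other 4. In both, genes with longer transcripts were read relatively more (Spearman correlation of a gene's deviation with its length 0.486 in control 1 and 0.403 in circ 3, against -0.458 to 0.0546 in the other 4, across 12469 genes, which are not independent). Results are therefore given with and without these libraries where they matter. Whether the 3 libraries of a group are separate cultures is not stated in the labels. A p-value here therefore speaks of differences among these libraries, and their spread may be no more than technical. Of 9 macrophage markers, 6 stood above 10 CPM in all libraries (CD14, CSF1R, ITGAM and SPI1 among them), and the 9 together summed to 1996 to 2150 CPM of the deposited totals in control and 1556 to 2025 CPM in circ libraries. CD68, MRC1 and LYZ were low, CD68 at no more than 0.324 CPM, although 85.8% of its exon bases and 34.0% of those of LYZ are shared with other annotated genes. Marker lists of T and NK cells (1.33 to 3.69 CPM in control, 2.30 to 2.57 in circ), B cells (0.543 to 1.64 and 0.597 to 1.15) and epithelium (0.181 to 0.693 and 0.119 to 0.676) were near 0, with CD2 and EPCAM at 0 counts. Fibroblast markers summed to 13.0 to 17.8 and 10.8 to 15.7 CPM, neutrophil markers to 34.1 to 40.2 and 41.0 to 52.1 CPM with CEACAM8 at 0, and endothelial markers, mostly PECAM1, which monocytes also carry, to 294 to 363 and 296 to 387 CPM. The neutrophil list was thus higher in each circ library, and its part in the results was not tested.

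No member passed the test between the siRNA groups. In edgeR's quasi-likelihood test with Benjamini-Hochberg adjustment over 12469 genes, 0 of 59 tested members were called higher (background 0%) and 0 were called lower (background 0.00802%, which is 1 gene) at an adjusted p under 0.05, and the smallest adjusted p of a member was 0.365. At an unadjusted p under 0.05, 1 member was higher (background 3.77%) and 3 were lower (background 2.68%). Those were DNAJB5 on the higher side and HSPB3, DNAJC25 and HSPB7 on the lower side. DESeq2 called 1 member higher, DNAJB5 (background 0.481%), and 0 lower (background 0.176%), while limma-voom called 0. With offsets for each library's trend with transcript length and GC content, edgeR called 0 higher and 0 lower (background 0.0481% in each direction). The log2 fold change, taken throughout as circ minus control, was positive in 22 and negative in 37 tested members. That is 62.7% negative beside 51.2% of all tested genes, with a median of -0.08 beside -0.01 for all genes. The median was -0.03 without control 2, and the median size of a change regardless of sign was 0.16 both in the members and in all genes. The precision limits what could be seen, since the 95% interval of a member's log2 fold change reached a median of 0.44 to either side (0.24 to 1.09).

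**Figure D1:**
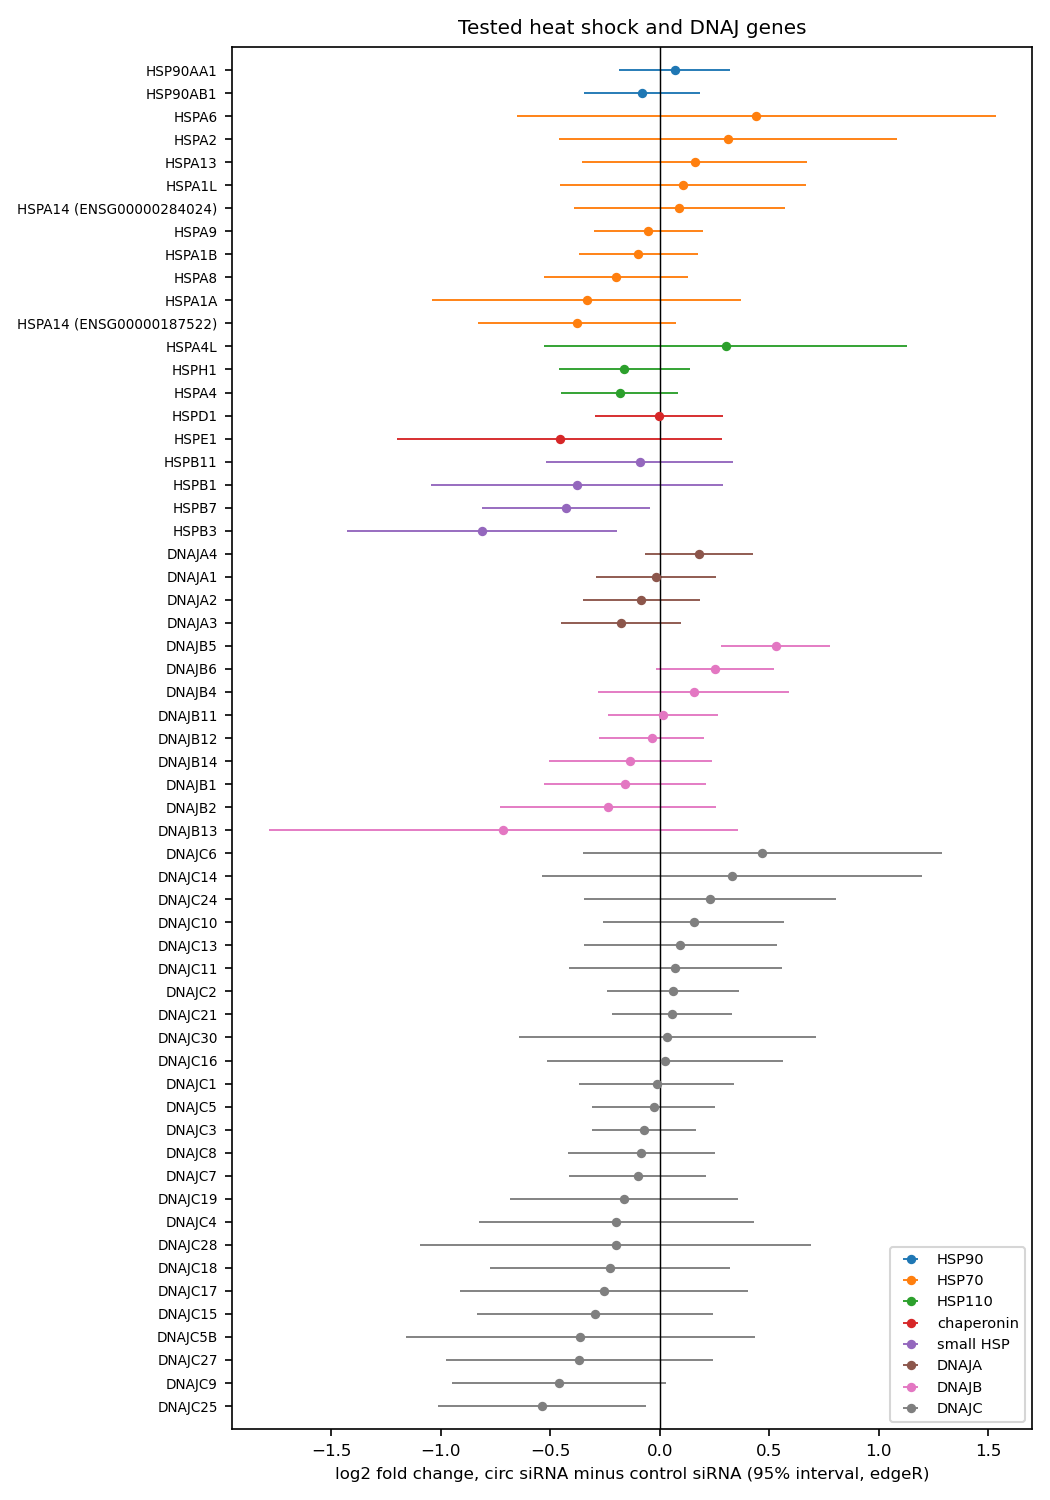
Log2 fold change (circ minus control siRNA, x axis) with its 95% interval from edgeR for each of the 59 tested members (y axis), coloured by family, 3 libraries per group. Most intervals span 0, and DNAJB5, at 0.53, stands farthest to the right of 0 relative to its interval, while HSPB3, HSPB7 and DNAJC25 lie below 0.

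Control and circ libraries did not overlap in 8 of 59 tested members, or 4 higher and 4 lower, beside 12.5% of all tested genes (6.64% higher and 5.87% lower). DNAJB5, DNAJB6, DNAJA4 and HSP90AA1 were above the controls in all circ libraries, and HSPB7, DNAJC9, DNAJA3 and DNAJC3 were below them. The members and the background were both compared with the library scaling of the edgeR test. With unscaled totals, DNAJB5, DNAJA4 and HSPB7 stayed apart, whereas DNAJB6, HSP90AA1, DNAJC9, DNAJA3 and DNAJC3 overlapped. Without control 1 and circ 3, which leaves 2 libraries per group and removes those that add most to the spread, edgeR called 3 members higher (DNAJB5, DNAJB6 and HSPA13) beside a background of 7.38%. In the same fit, 6 members were called lower (HSPB3, HSPB1, HSPB7, DNAJC25, DNAJC15 and HSPA14) beside a background of 7.43%. Both shares lie near the background. These RNA samples are bulk, so fewer cells that make a transcript and less transcript per cell cannot be told apart.

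Levels were compared in deposited FPKM, a value per transcript length, and were led by the constitutive cytosolic chaperones. The highest mean over the 6 libraries was that of HSP90AB1 (931 FPKM), the constitutive cytosolic HSP90, then the constitutive HSP70 HSPA8 (588), the small heat shock protein HSPB1 (268), the other cytosolic HSP90, HSP90AA1 (240), and DNAJA1 (199.9), a cytosolic J-protein partner of HSPA8. The spread over libraries separates these levels only in part, since HSPB1 ran from 179 to 364 FPKM and so overlapped HSP90AA1 and DNAJA1. Next came HSPD1 at 63.7 FPKM, HSPH1 at 54.5, DNAJC5 at 49.4, DNAJC8 at 48.8 and DNAJB6 at 48.0, which lie close to one another. In all, 5 tested members exceeded 100 FPKM, 17 lay between 10 and 100, 28 between 1 and 10, and 9 at 1 or less, the lowest being HSPA4L at 0.11. HSP90AB1, HSP90AA1 and HSPA8 together held 58.7% to 60.5% of the members' counts in every library. The members as a whole took 1.18%, 1.17% and 1.17% of the counts in control and 1.12%, 1.12% and 1.16% in circ libraries, lower in each circ library by a narrow margin that was not tested. These shares are of unscaled totals. The scaling factors of the libraries in the edgeR test, 0.953 to 1.05, differ by more than that margin, so the order of the libraries holds for unscaled totals only.

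**Figure D2:**
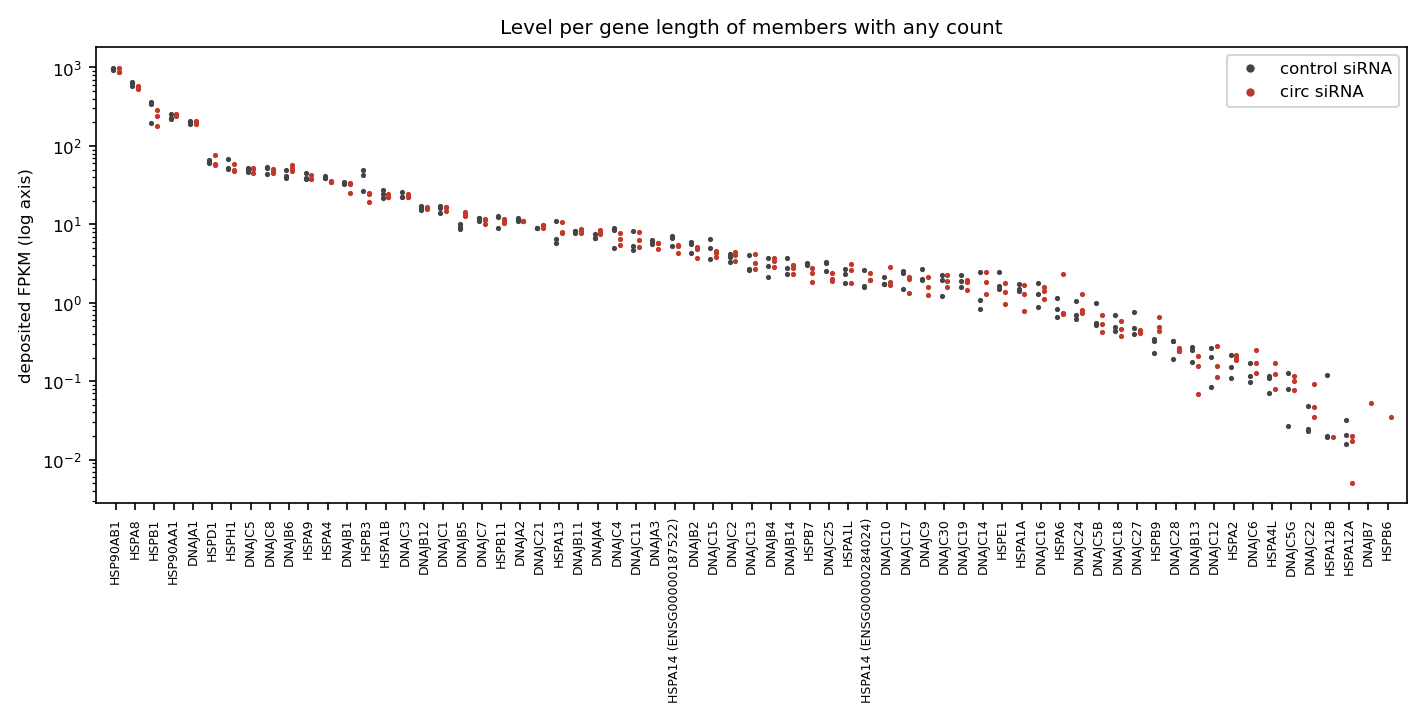
Deposited FPKM on a log axis (y) of the members with any count (x, in order of the mean), one point per library, grey for control and red for circ, with values of 0 not drawn. Control and circ points overlie each other for most members, from HSP90AB1 at the left (mean 931 FPKM) to members with a few counts at the right.

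A further 14 members were not tested because they did not reach 10 counts in enough libraries. Of these, 6 had 0 counts in all libraries, which allows at most 0.179 to 0.203 CPM per library. They are DNAJB8, HSPB2, HSPB8 and the readthrough genes DNAJC25-GNG10, HSPE1-MOB4 and HSPB2-C11orf52. The readthrough genes share nearly all of their sequence with their neighbours (89.7% of the 75-base words of DNAJC25-GNG10 and 91.3% of those of HSPE1-MOB4), so a 0 there says little about the transcripts. The same doubt holds for HSPB2, since 53.9% of its exon bases are shared with HSPB2-C11orf52 on the same strand and 46.9% with CRYAB on the opposite strand. The remaining 8, DNAJB7, DNAJC12, DNAJC22, DNAJC5G, HSPA12A, HSPA12B, HSPB6 and HSPB9, had at most 10 counts in a library. Of the small heat shock proteins best known from muscle, HSPB2, HSPB6 and HSPB8 were thus listed at or near 0, while HSPB3 and HSPB7 were tested.

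Among the HSP90 genes, which fold kinases and steroid receptors, the paralogs had opposite signs, and neither passed the test. HSP90AA1, the stress-inducible form, stood at 1261, 1216 and 1215 CPM of TMM-scaled library size, in which totals are adjusted so that most genes are level across libraries, in control 1 to 3 and at 1300, 1297 and 1277 CPM in circ 1 to 3. The groups did not overlap, but the difference was small, with a log2 fold change of 0.07 (SE 0.11) and an adjusted p of 0.918 in edgeR with Benjamini-Hochberg adjustment. HSP90AB1 stood at 2793, 2872 and 2892 CPM in control and at 2616, 2670 and 2803 CPM in circ libraries. Circ 3 overlapped the controls, and the log2 fold change was -0.08 (SE 0.12).

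The HSP70 genes gave 5 positive and 5 negative log2 fold changes among 10 tested of 12 listed, with a median of 0.02. HSPA8, which carries the housekeeping load and uncoats clathrin vesicles, stood at 2650, 3346 and 3183 CPM in control and 2648, 2906 and 2446 CPM in circ libraries. Control 1 lay with the circ libraries and circ 3 was the lowest of all, and HSPA8 differed by -0.20 on the log2 scale (95% interval -0.53 to 0.13, adjusted p = 0.882 in edgeR with Benjamini-Hochberg adjustment). HSPA8 makes up most of the summed FPKM of the HSP70 genes. That sum was 670, 735 and 722 in control and 629, 663 and 619 in circ libraries, without overlap. HSPA8 alone did overlap, at 574 FPKM in control 1 and 583 FPKM in circ 2. FPKM rests on unscaled totals, with TMM factors of 1.05 in control 1 and 0.974 in circ 2. The gap between the sums of control 1 (670) and circ 2 (663) is smaller than the difference between these factors. The lack of overlap in the sum thus holds for unscaled totals only. HSPA9, the mitochondrial HSP70 that pulls proteins through the inner membrane, ran from 302 to 337 CPM in the 6 libraries and differed by -0.05 (SE 0.11) on the log2 scale.

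The heat-inducible HSP70 genes did not pass the test and overlapped between the groups. HSPA1B stood at 65.1, 57.1 and 62.4 CPM in control and 61.2, 58.5 and 52.9 CPM in circ libraries, a log2 fold change of -0.10 (SE 0.12). HSPA1A, which encodes an almost identical protein from the neighbouring gene, had only 3.21, 3.81 and 4.34 CPM in control and 3.08, 4.11 and 1.80 CPM in circ libraries. The split between them is uncertain, since 71.2% of the 75-base words of HSPA1A and 73.2% of those of HSPA1B occur in another gene, mainly in each other. Their sum, which does not depend on that split, was 65.3 ± 3.90 CPM in control and 60.5 ± 5.12 CPM in circ libraries (SD, n = 3), and the groups overlapped. The sum may still depend on how shared reads were counted. Of the exon bases of HSPA1B, 36.5% are shared with AL671762.1 on the same strand. HSPA6, an HSP70 that is nearly silent without stress, stood at 1.49, 2.83 and 2.01 CPM in control and 1.69, 1.78 and 5.13 CPM in circ libraries. Its log2 fold change of 0.44 (SE 0.48) rested on circ 3 and was -0.27 without it. As 35.0% of the 75-base words of HSPA6 occur in HSPA7, its level is uncertain too. HSPA2, best known from testis, ran from 0.648 to 1.29 CPM and differed by 0.31 (SE 0.34).

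The HSPA14 rows differed from each other. HSPA14 is an atypical HSP70 that works on the ribosome with DNAJC2, and its row ENSG00000187522 stood at 12.6, 17.7 and 18.4 CPM in control and 13.7, 13.6 and 10.2 CPM in circ libraries. Control 1 lay among the circ libraries, and the log2 fold change was -0.38 (SE 0.20, adjusted p = 0.833 in edgeR with Benjamini-Hochberg adjustment). Without control 1 and circ 3 it was -0.40 (adjusted p = 0.041 in edgeR). The other row, ENSG00000284024, differed by 0.09 (SE 0.21), and the rows share part of their exons, so reads may have been split between them. DNAJC2 itself differed by 0.06 (SE 0.13).

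HSP110 proteins are nucleotide exchange factors of HSP70, and the 2 abundant ones leaned lower without passing the test. HSPA4 stood at 187, 219 and 203 CPM in control and 179.7, 189 and 167 CPM in circ libraries, with control 1 below circ 2, and its log2 fold change was -0.18 (SE 0.12). HSPH1 stood at 546, 443 and 455 CPM in control and 415, 412 and 464 CPM in circ libraries. Control 1 and circ 3 were the highest of their groups, and the log2 fold change was -0.16 (SE 0.13), or -0.11 without both. HSPA4L, the lowest tested member per length, ran from 0.843 to 1.86 CPM and differed by 0.30 (SE 0.36).

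The mitochondrial chaperonin did not separate the groups. HSPD1 stood at 260.4, 271 and 257 CPM in control and 242, 243 and 302 CPM in circ libraries, so that circ 3 was the highest and circ 1 and 2 the lowest. Its log2 fold change was -0.002 (95% interval -0.30 to 0.29) and took either sign when single libraries were left out. HSPE1, its lid, shares a promoter region with HSPD1 yet had only 2.64, 4.67 and 3.05 CPM in control and 3.26, 2.58 and 1.67 CPM in circ libraries. A total of 43.9% of its 75-base words occur elsewhere, HSPE1 pseudogenes among them, so its low level (1.62 FPKM beside 63.7 for HSPD1) and its log2 fold change of -0.46 (SE 0.32) are uncertain.

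Genes with an HSPB symbol had the lowest median of the families, -0.40 over 4 tested of 9 listed, and all 4 were negative. The 4 include HSPB11, which is a small heat shock protein by name only. These genes are short (median 2370.5 bases, beside 5193 for all tested genes) and rich in GC (55.8% beside 48.4%). With the length and GC offsets their median was -0.30. HSPB3 (chr5:54455699-54456377, plus strand, GRCh38), which forms complexes with HSPB2 in muscle, had the most negative log2 fold change of all tested members. It stood at 17.2, 35.4 and 29.7 CPM in control and 16.7, 17.7 and 12.4 CPM in circ libraries. Controls 2 and 3 were well above all circ libraries, and control 1 fell among them. Its difference on the log2 scale was -0.81 (SE 0.27, 95% interval -1.43 to -0.20, 0.57-fold), with an adjusted p of 0.602 in edgeR with Benjamini-Hochberg adjustment. It was -1.06 without control 1 and -0.59 without control 2. Without control 1 and circ 3 it was -0.92 with an adjusted p of 4.88e-04 in edgeR. That fit of 2 against 2 libraries drops the control that lay among the circ libraries, and it called 7.43% of all genes lower. HSPB3 is short (679 bases), and with offsets for each library's length and GC trend it was -0.67 (adjusted p = 0.143 in edgeR).

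HSPB7, a small heat shock protein of heart and muscle that protects filamin C, stood at 11.8, 12.4 and 12.7 CPM in control and 9.53, 7.43 and 10.5 CPM in circ libraries. The groups did not overlap, and the controls lay close together, but the log2 fold change of -0.43 (SE 0.17) had an adjusted p of 0.718 in edgeR with Benjamini-Hochberg adjustment. HSPB1, also called HSP27, the most abundant small heat shock protein here, varied widely within both groups. It stood at 282, 576 and 523 CPM in control and 360, 447 and 255.2 CPM in circ libraries, with control 1 and circ 3 the lowest of their groups. The log2 fold change was -0.38 (SE 0.29, adjusted p = 0.885 in edgeR), -0.21 with the length and GC offsets and -0.44 without both libraries (adjusted p = 0.011 in edgeR). HSPB11, a subunit of the intraflagellar transport machinery in spite of its name, differed by -0.09 (SE 0.19).

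**Figure D3:**
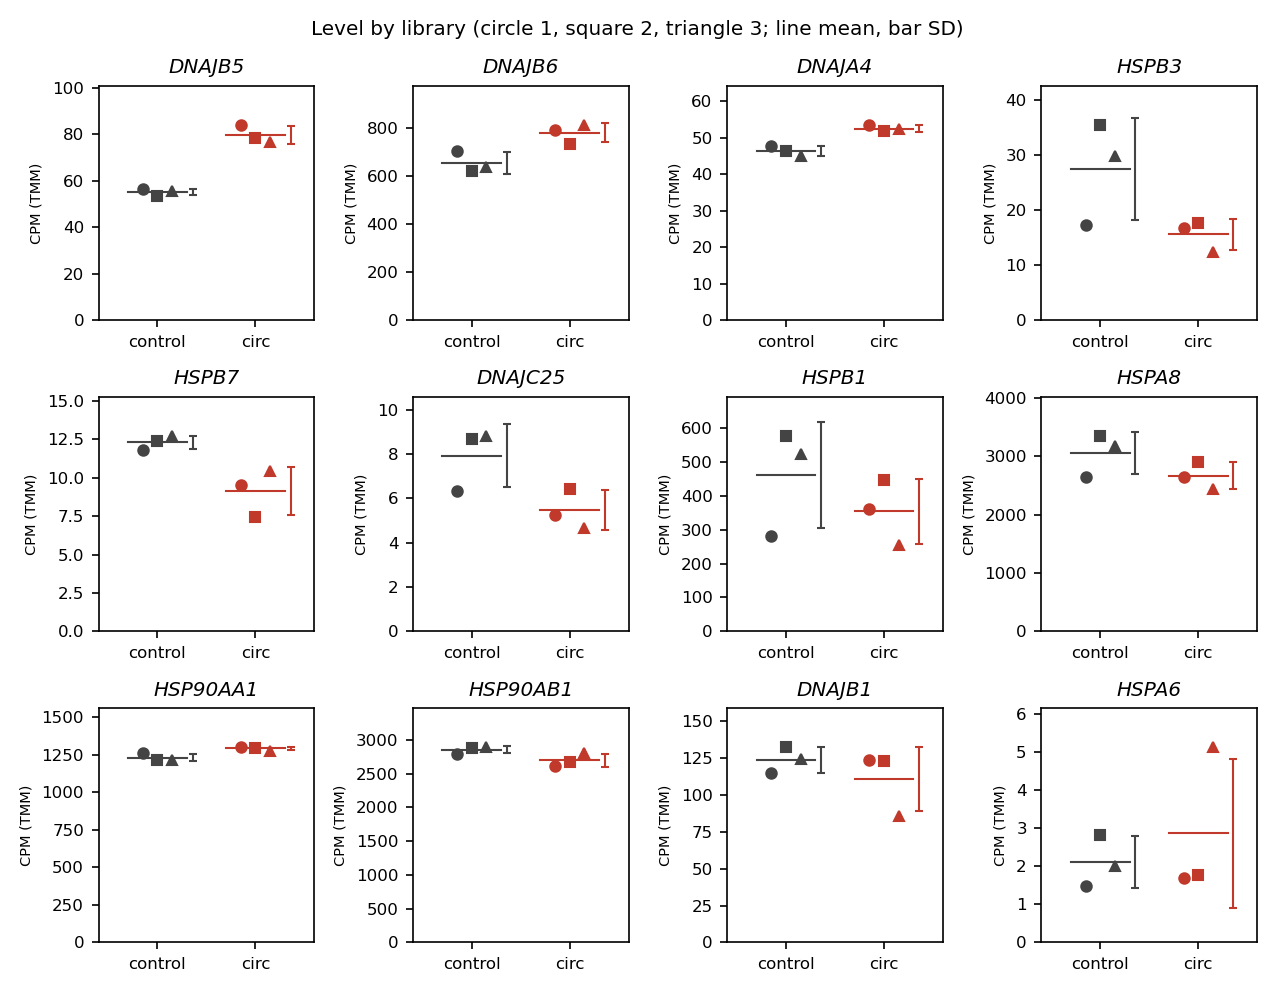
CPM of scaled library sizes (y axis, from 0) in each library for selected members, grey for control and red for circ, with circles, squares and triangles for libraries 1, 2 and 3, a line at the mean and a bar of 1 SD (n = 3). DNAJB5 is higher in every circ library (76.8 to 84.0 CPM against 53.6 to 56.4), whereas in HSPB3, HSPB1 and HSPA8 control 1 lies among the circ libraries, and HSPA6 rests on circ 3.

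The J-domain proteins gave 15 positive and 23 negative log2 fold changes among 38 tested of 44 listed, and DNAJB5 had the smallest p of all tested members. DNAJB5 (chr9:34989641-34998900, plus strand, GRCh38) is a J-protein of cytosol and nucleus related to DNAJB1, known from heart muscle cells as part of a redox-sensitive complex with the histone deacetylase HDAC4. It stood at 56.4, 53.6 and 55.7 CPM in control and 84.0, 78.3 and 76.8 CPM in circ libraries. All circ libraries were above all controls with a wide gap, and the means were 55.2 ± 1.47 and 79.7 ± 3.78 CPM (SD, n = 3). The change on the log2 scale was 0.53 (SE 0.11, 95% interval 0.28 to 0.78, 1.44-fold), yet the adjusted p was 0.365 in edgeR with Benjamini-Hochberg adjustment. It was past the threshold in DESeq2 (adjusted p = 0.0124) and in edgeR without control 1 and circ 3 (log2 fold change 0.58, adjusted p = 0.001), and not with length and GC offsets (0.51, adjusted p = 0.12). Leaving out 1 library at a time gave 0.49 to 0.56. DNAJB5 shares no exon base with another gene in GENCODE 29, and none of its 75-base words occurs in another gene.

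DNAJB6, which holds back the aggregation of polyglutamine proteins, and DNAJA4, a cytosolic J-protein, also lay above the controls in all circ libraries. DNAJB6 stood at 706, 619 and 638 CPM in control and 793, 735 and 812 CPM in circ libraries. The gap between control 1 and circ 2 was narrow, and the log2 fold change was 0.25 (SE 0.12, adjusted p = 0.804 in edgeR with Benjamini-Hochberg adjustment), 0.17 with the length and GC offsets, and 0.29 without control 1 and circ 3 (adjusted p = 0.023 in edgeR). DNAJA4 stood at 47.9, 46.3 and 44.98 CPM in control and 53.5, 51.8 and 52.3 CPM in circ libraries. The spread within each group was small, and the log2 fold change was 0.18 (SE 0.11). DNAJB6 is the most counted gene of its class. The summed level of the DNAJB genes was 1151, 971 and 1015 CPM of the deposited totals in control and 1217, 1114 and 1244 CPM in circ libraries, with circ 2 below control 1. These sums use unscaled totals, unlike the CPM of DNAJB6 above, and were not compared after TMM scaling.

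DNAJB1, the main inducible partner of HSP70, and DNAJA1, the most abundant J-protein, did not differ beyond their spread. DNAJB1 stood at 115, 132 and 125 CPM in control and 124, 123 and 86.0 CPM in circ libraries. Circ 3 alone was low, and DNAJB1 differed by -0.16 on the log2 scale (95% interval -0.53 to 0.21), or -0.01 without circ 3. DNAJA1 ran from 486 to 576 CPM in control and 515 to 558 CPM in circ libraries and differed by -0.02 (SE 0.12). DNAJA3, the mitochondrial J-protein that serves HSPA9, ran from 41.2 to 45.2 CPM in control and 34.8 to 40.6 CPM in circ libraries without overlap, with a log2 fold change of -0.18 (SE 0.12).

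The DNAJC class holds J-proteins with many other domains, and its 25 tested members of 29 gave 10 positive and 15 negative log2 fold changes with a median of -0.07. DNAJC25 stood at 6.31, 8.68 and 8.81 CPM in control and 5.25, 6.45 and 4.68 CPM in circ libraries. Circ 2 was just above control 1, and the log2 fold change was -0.54 (SE 0.21, adjusted p = 0.711 in edgeR with Benjamini-Hochberg adjustment), with -0.58 without control 1 and circ 3 (adjusted p = 0.044 in edgeR). DNAJC9, a nuclear J-protein that also escorts histones, stood at 9.93, 7.89 and 8.04 CPM in control and 6.03, 4.91 and 7.89 CPM in circ libraries. The values of circ 3 and control 2 nearly met, the log2 fold change was -0.46 (SE 0.21), and 28.6% of its exon bases lie opposite other genes, whose reads cannot be kept apart without knowing the use of strand.

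No DNAJC member passed the test with all 6 libraries, and the values of some turned on control 1 and circ 3. DNAJC14 stood at 9.93 CPM in control 1 and 9.88 CPM in circ 3 and at 3.68 to 7.72 CPM in the other 4. Its log2 fold change was 0.33 with all libraries and 0.67 without those 2 (adjusted p = 0.061 in edgeR), and 52.6% of its 75-base words occur in another gene. DNAJC15, a J-protein of the inner mitochondrial membrane, ran from 27.7 CPM in control 1 to 55.2 CPM in control 2 and differed by -0.30 (SE 0.23). Leaving out 1 library at a time gave -0.51 to -0.03, and without control 1 and circ 3 the value was -0.49 (adjusted p = 0.029 in edgeR). DNAJC6, the auxilin that recruits HSPA8 to clathrin coats, had few counts (0.723 to 1.67 CPM) and differed by 0.47 (SE 0.36). The J-proteins of the ER lumen gave log2 fold changes of 0.15 for DNAJC10 (SE 0.18), -0.07 for DNAJC3 (SE 0.10) and 0.02 for DNAJB11 (SE 0.11). DNAJC5, the cysteine-string protein of secretory vesicles, differed by -0.03 (SE 0.12), and DNAJC13, an endosomal coat regulator, by 0.09 (SE 0.19).

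Across the tested members, control 1 and circ 3 were the 2 lowest libraries in 15 and the 2 highest in 12 of 59. In control 1, short members tended to be low and long members high, and the difference of control 1 from the mean of controls 2 and 3 followed transcript length with a Spearman correlation of 0.56 across 59 members. The log2 fold change followed length with 0.40 across the members and 0.24 across 12469 genes. Genes in these correlations share the same 6 libraries, and the part of the length trend in the differences between the siRNA groups was not tested.

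**Figure D4:**
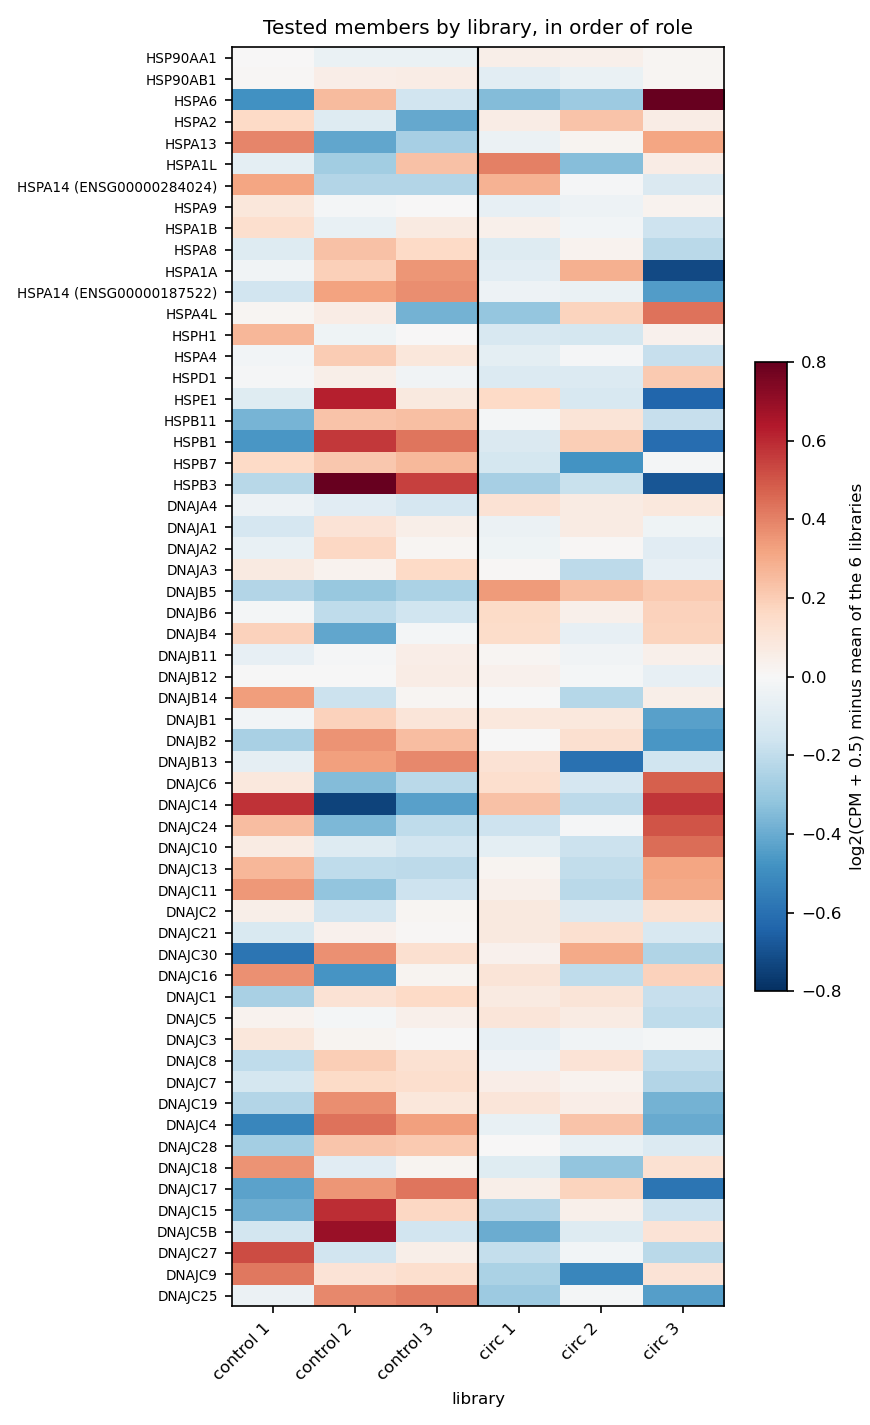
Deviation of log2(CPM + 0.5) of each tested member (rows, by family) from its mean over the 6 libraries (columns), red above and blue below, with colours saturating at the ends of the scale. DNAJB5 is blue in all controls and red in all circ libraries, while many rows, such as HSPB1, DNAJC14 and DNAJC17, have one colour in control 1 and circ 3 and the other in controls 2 and 3.

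The promoters of the members were read for the heat shock element, the repeat of GAA units to which heat shock factors bind, because the rule used symbols and not sequence. RefSeq promoters (GRCh38.p14, 250 bases before to 50 after the start) matched 63 of 72 symbols. Where a member symbol had several promoters, only the first listed was read. Searched on both strands, GAANNTTC was in 11 of 63 member promoters (17.5%, beside 6.77% of all 35116 promoters of that length) and TTCNNGAA in 8 (12.7% beside 7.74%). One or the other was in 14 (22.2% beside 13.5%). The shares over all promoters count every promoter listed, whereas members count once per symbol. DNAJC25 and HSPE1 have the same window as their readthrough genes, which are counted beside them. A longer form of 13 bases, in which GAANNTTC runs on into TTCNNGAA with the TTC unit shared, was in 4 (6.35% beside 0.490%), namely HSPA8 with 2 copies, HSPA6, DNAJB6 and DNAJA1. The 250 bases before the start are shown for 3 of these genes, for DNAJB5, which had the smallest p, and for HSPB3, which had the most negative fold change. For DNAJA1, whose long word lies just after the start, the site alone is shown. They are the strand of the gene, 5′ to 3′, at chr11:123062137-123062386 (minus strand) for HSPA8, chr1:161524290-161524539 (plus) for HSPA6, chr7:157336754-157337003 (plus) for DNAJB6, chr9:34990040-34990289 (plus) for DNAJB5, chr5:54455449-54455698 (plus) for HSPB3 and chr9:33025268-33025296 (plus) for the DNAJA1 site. RefSeq's start is not always the outer end of the gene in the deposited table. The stretches of HSPA6 and HSPB3 end where the deposited gene begins, whereas those of HSPA8 (deposited as chr11:123057489-123063230), DNAJB6 (chr7:157335381-157417439) and DNAJB5 lie inside the deposited span, so an upstream start of these genes was not searched. Capitals mark every match to the short or the long form.
HSPA8: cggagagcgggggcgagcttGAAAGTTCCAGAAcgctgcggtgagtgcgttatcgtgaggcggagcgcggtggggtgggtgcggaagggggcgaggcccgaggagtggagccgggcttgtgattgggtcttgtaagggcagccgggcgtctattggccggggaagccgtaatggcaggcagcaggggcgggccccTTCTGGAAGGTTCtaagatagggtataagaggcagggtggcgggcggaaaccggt
HSPA6: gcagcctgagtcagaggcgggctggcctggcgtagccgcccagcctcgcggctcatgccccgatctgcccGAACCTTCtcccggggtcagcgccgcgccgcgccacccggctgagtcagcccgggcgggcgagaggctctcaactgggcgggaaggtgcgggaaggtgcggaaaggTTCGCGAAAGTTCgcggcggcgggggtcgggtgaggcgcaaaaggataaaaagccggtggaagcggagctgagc
DNAJB6: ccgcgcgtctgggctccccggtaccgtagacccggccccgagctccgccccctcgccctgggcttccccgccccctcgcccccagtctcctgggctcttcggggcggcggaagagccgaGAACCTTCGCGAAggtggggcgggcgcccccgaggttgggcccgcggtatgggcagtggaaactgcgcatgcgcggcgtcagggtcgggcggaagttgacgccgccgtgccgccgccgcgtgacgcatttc
DNAJB5: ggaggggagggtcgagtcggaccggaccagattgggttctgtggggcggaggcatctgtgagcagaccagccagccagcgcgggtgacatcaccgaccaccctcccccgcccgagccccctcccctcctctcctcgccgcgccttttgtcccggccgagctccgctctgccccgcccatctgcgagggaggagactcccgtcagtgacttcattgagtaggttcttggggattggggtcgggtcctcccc
HSPB3: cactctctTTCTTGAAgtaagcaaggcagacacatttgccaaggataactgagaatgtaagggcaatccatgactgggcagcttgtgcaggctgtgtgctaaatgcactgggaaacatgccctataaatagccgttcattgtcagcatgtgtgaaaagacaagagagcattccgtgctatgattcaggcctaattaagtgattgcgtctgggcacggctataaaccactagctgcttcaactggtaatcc
DNAJA1 site: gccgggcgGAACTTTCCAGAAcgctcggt

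HSPA8 holds the long form at both ends of the stretch, HSPA6 near the start with a separate short form upstream, DNAJB6 in the middle, and HSPB3 only a short form at its far end. DNAJB5 has no match in its window, which says only that these letters are not in that stretch, inside the deposited gene. The 4 members with the long form had log2 fold changes of -0.20 (HSPA8), -0.02 (DNAJA1), 0.25 (DNAJB6) and 0.44 (HSPA6), with a median of 0.12. The 11 tested members with a short form, those 4 included, gave 3 positive and 8 negative values with a median of -0.10. The 42 tested members without any in the window that was read gave 17 positive and 25 negative values with a median of -0.08. Other starts of these members were not searched, so they may hold an element elsewhere. The median with the long form thus had the opposite sign to that without any word, over only 4 genes whose values lie on both sides of 0. HSPA1A and HSPA1B carry the same short word, GAATATTC, at 106 and 105 bases before the start, and their 250 upstream bases are identical in 235 of 251 aligned columns (93.6%), although the table gives HSPA1B a far higher count than HSPA1A.

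The genes that work with the members gave no call in edgeR or DESeq2 either, and most were on the negative side. In 6 lists of further chaperone genes, 56 of 60 were tested, and 0 were called in edgeR, 4 being lower and 0 higher at an unadjusted p under 0.05. Of the 56, 48 log2 fold changes were negative (85.7%, beside 51.2% of all tested genes), with a median of -0.21 beside -0.01. Control and circ libraries did not overlap in 11, all lower, beside 5.87% of all tested genes for the lower direction. In edgeR without control 1 and circ 3, 18 were called lower and 2 higher, beside backgrounds of 7.43% and 7.38%. These genes are shorter than most (median 4016 bases, beside 5193 for all tested genes), and with the length and GC offsets the median was -0.17. The part of length in it was not tested beyond that.

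TRiC, the ring chaperonin of the cytosol that folds actin and tubulin, was negative in 8 of 8 subunits with a median of -0.24. CCT2 stood at 157, 204 and 185 CPM in control and 145, 153 and 148 CPM in circ libraries, without overlap (log2 fold change -0.29, SE 0.13, adjusted p = 0.773 in edgeR with Benjamini-Hochberg adjustment). CCT6A stood at 233, 241 and 239.9 CPM in control and 188, 192 and 212 CPM in circ libraries, also without overlap (-0.27, SE 0.11). Prefoldin, which hands nascent actin and tubulin to TRiC, was negative in 6 of 6 subunits with a median of -0.34, and those with the smallest p were PFDN2 at -0.40 (SE 0.21) and PFDN4 at -0.35 (SE 0.20). Control 1 lay among the circ libraries for PFDN2 (76.4 CPM beside 63.4 to 87.2) and below them for PFDN4 (17.96 CPM beside 18.99 to 19.95). PFDN2 was -0.57 without control 1 and -0.20 without control 2, and PFDN4 -0.54 and -0.15. In edgeR without control 1 and circ 3, 6 of 8 TRiC and 5 of 6 prefoldin subunits were called lower, beside 7.43% of all genes in that fit. With all 6 libraries and the length and GC offsets, the medians were -0.22 for TRiC and -0.23 for prefoldin, with 0 called. Prefoldin genes are short, with a median of 2050 bases.

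Of 14 co-chaperones and exchange factors of HSP70, 13 were negative with a median of -0.23. BAG2, which inhibits the ubiquitin ligase STUB1, had the smallest p and stood at 11.02, 12.7 and 11.02 CPM in control and 8.32, 8.29 and 7.57 CPM in circ libraries. All circ libraries were below all controls, and the log2 fold change was -0.52 (SE 0.15, adjusted p = 0.529 in edgeR with Benjamini-Hochberg adjustment). GRPEL1, the exchange factor of HSPA9, stood at 38.6, 43.98 and 42.4 CPM in control and 34.4, 36.7 and 27.4 CPM in circ libraries (-0.34, SE 0.14). Of 16 tested co-chaperones of HSP90, 13 were negative with a median of -0.13, and those with the smallest p were TOMM70, the mitochondrial import receptor that docks HSP90 and HSP70 (-0.29, SE 0.12), and SUGT1 (-0.31, SE 0.17). Among 4 tested disaggregases and other chaperones, 3 were negative, SERPINH1, the collagen chaperone of the ER, at -0.25 (SE 0.18) and TRAP1, the mitochondrial HSP90, at -0.10 (SE 0.15), and CRYAB had 0 counts.

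The heat shock factors did not move together. HSF1 stood at 125, 144 and 153 CPM in control and 131, 143 and 108 CPM in circ libraries, with circ 3 the lowest and the rest mingled (log2 fold change -0.14, SE 0.14). HSF2, a factor that pairs with HSF1 and is itself short-lived, stood at 20.6, 17.3 and 16.5 CPM in control and 27.4, 26.0 and 17.4 CPM in circ libraries. Circ 1 and 2 were above all controls and circ 3 was not, and the log2 fold change was 0.38 (SE 0.20, adjusted p = 0.832 in edgeR with Benjamini-Hochberg adjustment), or 0.67 without control 1 and circ 3 (adjusted p = 0.003 in edgeR). HSF4, best known from the lens, differed by -0.31 (SE 0.19), and over 8 tested of 10 listed factors and regulators, 3 were positive and 5 negative with a median of -0.12. The ER chaperones outside the rule gave log2 fold changes of 0.05 for DNAJB9 (SE 0.14), -0.12 for HSP90B1 (SE 0.16) and -0.10 for HSPA5 (SE 0.11), with overlapping groups in each.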

How the data were processed

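The deposited table holds a whole-number read count and an FPKM value per gene and library, made by the authors from paired-end reads of poly-A RNA, per the labels' protocols, with CASAVA, cutadapt and HISAT2 on GRCh38, per the submitters' processing notes. Not given in the sources used here are the versions, the counter, whether counting used strand, and which annotation it used. The deposited FPKM equalled count over length and library total for 100% of values (relative tolerance 1e-06). It was used to compare levels between genes, and between libraries only for the summed HSP70 genes and in the drawn levels. The circular RNA was not analysed here.

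Counts were tested with edgeR 4.0.16 in R 4.3.3 (quasi-likelihood F test, two-sided, TMM scaling, filterByExpr with a minimum count of 10, the group as only term) in 3 against 3 libraries, with Benjamini-Hochberg adjustment over 12469 genes and calls at an adjusted p under 0.05. CPM refers to TMM-scaled library sizes unless deposited totals are named. Every pair of libraries in a group differed by more than sampling noise (chi-square per gene at least 5.92). Alternatives were DESeq2 1.42.0, limma-voom (limma 3.58.1), other scalings, filters and thresholds, a replicate block, offsets for length and GC (splines of 4 degrees of freedom that ignore the groups) and leaving out libraries. Shared exons and 75-base words were taken from GENCODE 29, and promoters from RefSeq. The code was tested on simulated data. Intervals cover the spread between libraries, and limits for 0 counts cover counting error only. Protein sequences were not used here.

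The members and lists were chosen with earlier results of these data known. Named genes were the main cytosolic and mitochondrial chaperones, the 6 tested members of smallest p in each direction, the members with the highest and lowest mean FPKM, HSF1, HSF2, the 2 genes of smallest p in each further list, and the ER chaperones outside the rule. Other members were named after their values were seen, as examples of their class.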

Additional observations from a re-analysis of the deposited data

How the results depend on the processing

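The 1 gene called lower over all genes became 0 with library totals, with a mean of at least 10 CPM, in limma-voom, with the replicate block (with or without length and GC offsets) and at an adjusted p under 0.01, and 0 to 0 when single libraries were left out. It became 2 without a filter, 6 with the offsets, 4 at an adjusted p under 0.1, and 22 in DESeq2. Genes called higher rose from 0 to 6 with the offsets, 3 at an adjusted p under 0.1 and 60 in DESeq2. Without control library 1 and circ library 3, a fit of 2 against 2 that drops the libraries adding most spread, 919 genes were higher and 926 lower. Members called higher numbered 1 in DESeq2 and 3 in that fit, and members called lower 6 in that fit, and both counts stayed at 0 in the other settings.

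The median log2 fold change of the members was -0.0715 with the replicate block, -0.0495 with the block and offsets, and -0.0811 to -0.0294 when single libraries were left out. Equal replicate numbers did not pair libraries (correlations of their deviations -0.167, 0.456 and -0.369, and some libraries correlated better with another number than with their own).

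Of 647 values of 41 named genes under the alternatives, 616 kept their sign and their call, 16 passed the threshold only in the alternative, and 15, in 5 genes, changed sign. The cause was not tested. DNAJA1 was 0.0124 with library totals, 0.0364 with offsets and 0.0368 with block and offsets, and -0.0809 to 0.0373 with single libraries left out. HSPD1 was 0.0283 with library totals, 0.00913 with a mean of at least 10 CPM, and -0.116 to 0.0522 with single libraries left out. DNAJB9 ran from -0.0435 to 0.146 and HSPA6 from -0.27 to 0.71 in the same way. Without control library 1 and circ library 3, HSPA6 was -0.47 and HSPA1B 0.00606. The 95% intervals of the members, 0.44 to either side at the median with 3 libraries per group, limit which differences could be seen.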

Other observations

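The counts of the cytosolic HSP90 paralogs were also compared within each library, a ratio chosen after their values were seen. HSP90AA1 counts over HSP90AB1 counts were 0.452, 0.423 and 0.42 in control 1 to 3 and 0.497, 0.486 and 0.456 in circ 1 to 3. All circ libraries were above all controls, control 1 and circ 3 lying closest, and the means were 0.432 ± 0.0172 and 0.480 ± 0.0215 (SD, n = 3). No test is given, since the ratio was chosen for this separation. The ratio does not depend on how libraries are scaled, and it is not per transcript length. Scaling leaves a library's length trend in place, and HSP90AA1 is the longer gene (5248 bases, against 2980 for HSP90AB1). When edgeR allowed for length and GC, HSP90AA1 moved from 0.07 to 0.03 on the log2 scale. HSP90AB1 moved from -0.08 to -0.05. The paralogs thus lay closer together but kept opposite signs, and the part of length in the ratio was not tested.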
